A study of Mus musculus with 10 samples.

Results

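The 10 core cardiac transcription factors, Gata4, Gata6, Nkx2-5, Tbx5, Tbx20, Hand1, Hand2, Mef2a, Mef2c and Mef2d, were followed in mouse cardiomyocytes that made a dominant-negative form of MKL1. They were chosen by gene symbol as the GATA, NKX, TBX, HAND and MEF2 factors of the heart, and all 10 were found among the 23337 genes of the authors' deposited table. Of these, 9 had an adjusted p-value there and Hand1, with too few reads, had none.

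Both groups were wild-type mice injected on postnatal day 1 with adeno-associated virus of serotype AAV9 at 5e+08 viral genomes per gram. In the GFP group the vector carried GFP alone, and in the dnMKL1 group it carried dnMKL1 with GFP, each behind the cardiomyocyte promoter cTNT (from cardiac troponin T). Cardiomyocytes were taken on postnatal day 14 by collagenase perfusion and sorted by fluorescence, with 5 biological replicates in each group. MKL1 (also called MRTF-A) is a coactivator of serum response factor (SRF), and the comparison asks which transcripts differ when its dominant-negative form is present.

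The factors studied here bind DNA together at heart muscle genes. The zinc finger proteins GATA4 and GATA6, the homeodomain protein NKX2-5 and the T-box proteins TBX5 and TBX20 form complexes at shared enhancers, the HAND proteins are basic helix-loop-helix factors that pair with E-proteins, and the MEF2 proteins are relatives of SRF within the MADS-box family. Most are known for building the embryonic heart, and several keep the gene programme of the postnatal cardiomyocyte running.

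The values analysed are the authors' own comparison, with no column for a single library. A gene's base mean is its count divided by the library's size factor and averaged over the libraries, and its log2 fold change compares dnMKL1 with GFP. Group means given below were computed from these and are called implied means. The depth, estimated through the size factors, ran from 8803029 to 17123578 counts per GFP library and from 8835136 to 17228615 per dnMKL1 library. The table does not state the direction of its fold changes, which was read from Mkl1, the gene behind the vector's product, at 9.80 (SE 0.15) on the log2 scale by the authors' deposited table. All 8 cardiomyocyte markers looked up were abundant, with base means in the authors' deposited table from 10438 for Ryr2 to 594986 for Myh6. Of these, 5 were lower (Tnnt2, Myh6, Ryr2, Tnni3 and Ttn) and 0 higher, with a median log2 fold change of -0.45, or 3 lower and 0 higher when both groups are scaled to the same total. In bulk libraries, fewer cells of a type and less RNA per cell cannot be told apart.

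Of the 9 factors with an adjusted p-value, Mef2d was lower in dnMKL1 libraries and the other 8 did not pass the threshold of 0.05 in the authors' deposited table (Wald test, Benjamini-Hochberg adjusted). Over all 14056 genes tested, 34.1% passed, and among the 8641 with a base mean of at least 100, as all 9 factors had, 43.4% did. The median log2 fold change of the 9 factors was -0.0031, beside 0.021 over all genes tested. The fold changes of Gata4, Nkx2-5, Tbx5, Mef2a and Mef2c lay between -0.13 and 0.10, while those of Gata6, Tbx20 and Hand2 were larger and had wide intervals.

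These calls depended on how the libraries were scaled. Over all genes the implied means came to 13330302 normalized counts for GFP and 10915829 for dnMKL1. Scaling both to the same total adds 0.29 to every log2 fold change, and then Gata4, Gata6, Nkx2-5, Tbx5, Tbx20 and Hand2 were higher and Mef2d was no longer past the threshold. The split of calls thus went from 0 higher and 1 lower to 6 higher and 0 lower, while of all genes tested 47.0% then passed, 40.4% higher and 6.60% lower, against 16.6% and 17.4% under the authors' scaling. With the most abundant genes (base mean 10000 and up) left out of the totals, the shift was 0.11. Which scaling is closer to the amount of RNA per cell was not tested, and all fold changes below are relative to the authors' scaling.

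**Figure D1:**
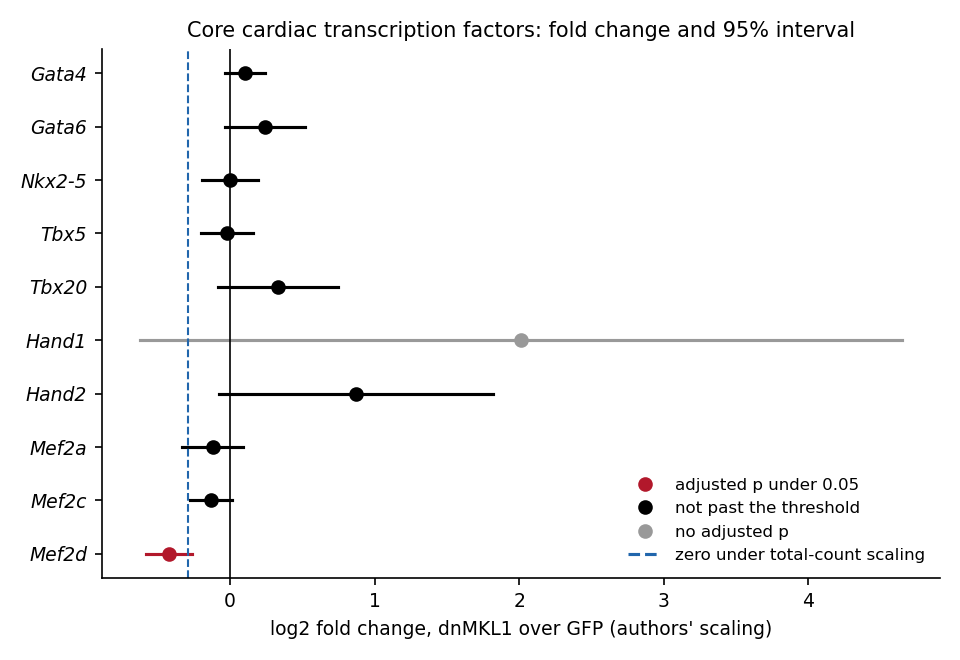
The log2 fold change of each core factor, dnMKL1 over GFP under the authors' scaling (horizontal axis), is drawn as a point with its 95% normal interval from the deposited SE. The interval of Mef2d alone lies wholly on one side of 0, and the dashed line marks where 0 falls when both groups are scaled to the same total.

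MEF2 factors are the effectors of calcium signalling to muscle genes, and MEF2D is the member linked to stress-dependent remodelling of the heart. Mef2d (chromosome 3, 88141941 to 88172091, GRCm38) had implied means of 1161 normalized counts under GFP and 868 under dnMKL1. In the authors' deposited table this was a log2 fold change of -0.42 (SE 0.08), with a 95% interval from -0.58 to -0.26, or 0.748 times the GFP level, and a Benjamini-Hochberg adjusted Wald p of 3.1e-06. The change was smaller than a log2 fold change of 0.5. Over 531 bases of its span Mef2d overlaps the antisense gene 1700113A16Rik, which the authors' deposited table lists at a base mean of 51.4 and a log2 fold change of -0.36 (SE 0.20). The use of strand in the counting is not stated, so reads there may belong to either gene.

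Mef2a (chromosome 7, 67231163 to 67376456), the most abundant MEF2 member in these cells, had implied means of 3021 normalized counts under GFP and 2784 under dnMKL1. The authors' deposited table put its log2 fold change at -0.12 (SE 0.11), with an interval from -0.33 to 0.093 (Benjamini-Hochberg adjusted Wald p = 0.446). In GENCODE its span overlaps 76168 bases of Lysmd4, a protein-coding gene on the opposite strand, with a base mean of 619 and 0.091 (SE 0.13) in the authors' deposited table. The overlap counts introns, so the doubt about strand holds here only where exons are shared, which was not measured. Mef2c (chromosome 13, 83504017 to 83667079), which is required for the looping heart tube, had implied means of 1279 and 1169. For Mef2c the authors' deposited table gave -0.13 (SE 0.07), with an interval from -0.27 to 0.014 (Benjamini-Hochberg adjusted Wald p = 0.168). The 3 MEF2 values were thus below 0, with that of Mef2d past the threshold, while under equal totals Mef2a and Mef2c turned to 0.17 and 0.16 and Mef2d stood at -0.13, none of them called. With Mkl1 left out of those totals, Mef2c was called higher, at 0.17.

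The difference between paralogues does not depend on scaling. Mef2d fell by 0.29 more than Mef2c on the log2 scale, with a 95% interval of the difference from -0.50 to -0.074, and by 0.30 more than Mef2a, with an interval from -0.57 to -0.037. Both intervals take the estimates as independent, which cannot be checked without values per library, and no test was made of them. Mef2a and Mef2c differed from each other by 0.012, with an interval from -0.24 to 0.27. Per kilobase of the longest transcript, Mef2d made up 22.3% of the summed implied level of the 3 genes under GFP and 18.9% under dnMKL1, Mef2c 21.1% and 21.9%, and Mef2a 56.6% and 59.2%.

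The start regions of the factors were searched for the binding letters of SRF, since MKL1 acts through it, and of the MEF2 proteins. RefSeq windows (GRCm38.p6, 250 bases before to 50 after a start) were matched for 6 of the 10 factors, Nkx2-5, Tbx20, Hand2, Mef2a, Mef2c with 3 windows, and Mef2d, 8 windows in all. The windows of Mef2d, Mef2a and Nkx2-5 lay wholly inside the gene spans given in this report, so the outermost starts of these genes were not searched. For them, start below means the start that the window was built on. On either strand, 0 of 8 held a CArG box, the SRF site, which 1.63% of 32851 windows of the same length hold. A MEF2 site stood in 1 of 8, that of Mef2a, against 3.19% of all windows. The 250 bases before the start of Mef2d, the factor that was lower, are shown because they hold neither motif (chr3:88142122-88142371, plus strand, 73.2% G and C), and the Mef2a stretch because it holds the MEF2 site, in capitals, from 2 bases before the start (chr7:67372841-67372870, minus strand):
Mef2d: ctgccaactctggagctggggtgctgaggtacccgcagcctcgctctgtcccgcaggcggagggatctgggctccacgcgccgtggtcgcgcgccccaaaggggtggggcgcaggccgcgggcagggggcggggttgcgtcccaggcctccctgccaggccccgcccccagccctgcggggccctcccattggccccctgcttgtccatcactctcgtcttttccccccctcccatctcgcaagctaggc
Mef2a: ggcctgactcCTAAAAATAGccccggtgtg
The site in Mef2a lay in a gene whose fold change did not pass the threshold. Absence of a match says only that these letters are not in these windows. The GATA motif GATAAG stood in 0 of 8 windows (7.44% of all), the NKX2-5 core AAGTG in 4 of 8 (46.4%), the E-box CANNTG, which takes in some AAGTG matches, in 4 of 8 (72.3%) and the T-box core GGTGTG in 2 of 8 (19.0%).

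GATA4 and GATA6 act in part redundantly in the heart, and GATA4 supports growth and survival of the postnatal cardiomyocyte. Gata4 (chromosome 14, 63198914 to 63271712) had implied means of 4019 normalized counts under GFP and 4319 under dnMKL1. By the authors' deposited table this was a log2 fold change of 0.10 (SE 0.07), with an interval from -0.037 to 0.24 (Benjamini-Hochberg adjusted Wald p = 0.284). This interval leaves out a rise above 1.18-fold under the authors' scaling. Gata6 (chromosome 18, 11052510 to 11085636) had implied means of 1603 and 1897 and, by the authors' deposited table, a log2 fold change of 0.24 (SE 0.14), with an interval from -0.032 to 0.52 (Benjamini-Hochberg adjusted Wald p = 0.180). With both groups scaled to the same total, the log2 fold changes became 0.39 for Gata4 and 0.53 for Gata6, both past the threshold. Gata4 and Gata6 were also past it with the most abundant genes left out of the totals. Across 504 bases of Gata6, GENCODE places 1010001N08Rik, a gene on the opposite strand that has no values here. Its reads over this stretch may stand in the Gata6 value if strand was not used.

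Nkx2-5 (chromosome 17, 26838664 to 26844988), a homeodomain factor needed for conduction and chamber formation, had near equal implied means of 583 and 582 normalized counts. The authors' deposited table put its log2 fold change at -0.0031 (SE 0.10), with an interval from -0.20 to 0.19 (Benjamini-Hochberg adjusted Wald p = 0.985). Tbx5 (chromosome 5, 119796514 to 119885220), whose product partners with NKX2-5 and GATA4, had implied means of 469 and 463. This gene's log2 fold change by the authors' deposited table was -0.019 (SE 0.09), with an interval from -0.20 to 0.16 (Benjamini-Hochberg adjusted Wald p = 0.910). As folds, the intervals ran from 0.873 to 1.14 for Nkx2-5 and from 0.871 to 1.12 for Tbx5. Under scaling to equal totals both turned positive and were called, at 0.29 for Nkx2-5 and 0.27 for Tbx5.

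Tbx20 (chromosome 9, 24720812 to 24774303) encodes a T-box factor that maintains the adult cardiomyocyte and can activate or repress. Its implied means were 2694 normalized counts under GFP and 3391 under dnMKL1. This was 0.33 (SE 0.21) on the log2 scale by the authors' deposited table, with a wide interval from -0.082 to 0.75 (Benjamini-Hochberg adjusted Wald p = 0.234). As a fold, the interval ran from 0.945 to 1.68, and under equal totals the log2 fold change of 0.62 passed the threshold.

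HAND2 and HAND1 are known from the right and left ventricle of the embryo, and HAND2 is also made outside cardiomyocytes. Hand2 (chromosome 8, 57320983 to 57324517) had implied means of 140 normalized counts under GFP and 256 under dnMKL1. The log2 fold change listed by the authors' deposited table, 0.87 (SE 0.48), was the largest of the 9 factors tested, and its interval ran from -0.074 to 1.82 (Benjamini-Hochberg adjusted Wald p = 0.159). GENCODE places Hand2os1, a noncoding gene on the opposite strand, across 3251 bases of Hand2. The deposited table has no row for Hand2os1, so its reads over this stretch may stand in the Hand2 value if strand was not used.

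Hand1 (chromosome 11, 57828713 to 57832147) was almost silent, with a base mean of 1.09 and a log2 fold change of 2.01 (SE 1.34, unadjusted Wald p = 0.135) by the authors' deposited table. Because its base mean is the sum of a few whole reads, each divided by a size factor, the reads could be solved for, and 1 pattern matched the deposited value within 1e-13. It held 12 reads in 6 of the 10 libraries. In order of size factor, the GFP libraries had 0, 1, 0, 0 and 1 reads and the dnMKL1 libraries 2, 0, 2, 2 and 4. The groups overlapped at 0 reads and, in normalized counts, at 1.45 in 1 dnMKL1 library against 1.51 in 1 GFP library. The group sums were 2 reads (exact Poisson 95% interval 0.242 to 7.22) and 10 reads (4.80 to 18.4), intervals that overlap and cover counting error only.

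The factors differed widely in level. Per kilobase of the longest GENCODE transcript, the base mean was 1226 normalized counts for Gata4, 524 for Mef2a, 462 for Gata6, 382 for Nkx2-5 and 335 for Tbx20. It was 195 for Mef2c, 188 for Mef2d, 118 for Tbx5, 84.1 for Hand2 and 0.573 for Hand1. Gata4 stood 2.34 times above the next factor, and Hand2 147 times above Hand1. Of the neighbours in this order, Nkx2-5 and Tbx20 (ratio 1.14, 95% interval 0.976 to 1.33) and Mef2c and Mef2d (1.04, 0.969 to 1.11) were not separated beyond the error of their means over 10 libraries. The lower bounds for Mef2a over Gata6 and for Tbx5 over Hand2 were 1.01 and 1.01. These intervals take the genes as independent and leave out the choice of transcript. The order holds only for this length: per kilobase of coding sequence Gata4 was still first, Hand1 last and Tbx20 second, since its longest transcript of 9091 bases has only 1335 coding bases. Which transcripts the cells use is not resolved by counts per gene.

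**Figure D2:**
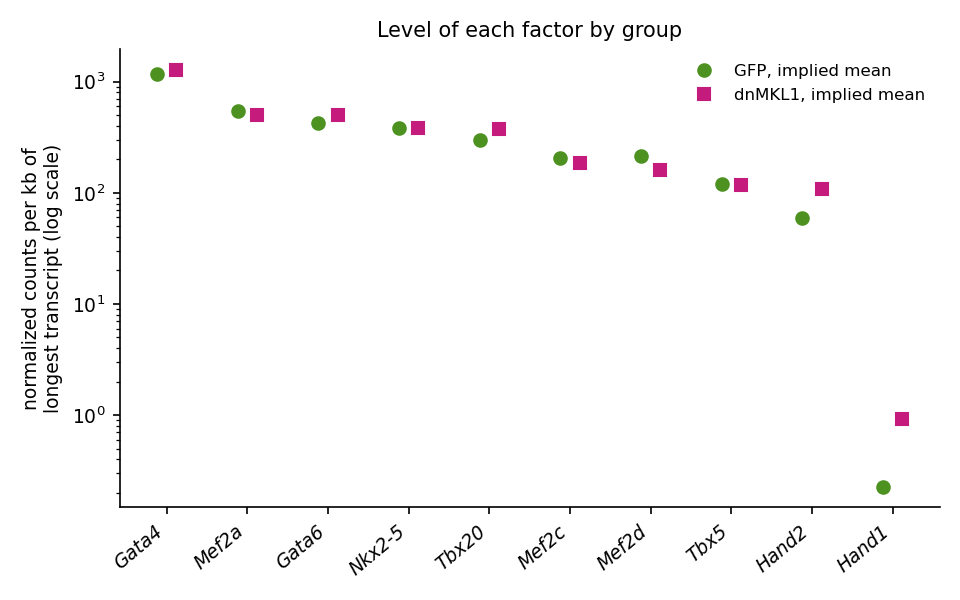
Implied mean level of each core factor in the GFP group (circles) and the dnMKL1 group (squares), in normalized counts per kilobase of the longest transcript on a log scale, with the factors in order of base mean. The groups lie close together for the factors from Gata4 to Tbx5 and apart for Hand2 and Hand1, the former without passing the threshold and the latter from 12 reads.

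The precision of the fold changes also differed. The SE of Hand2 was 3.57 times the median of genes with base means within 2-fold of its own, and 98.3% of those genes had a smaller SE. For Tbx20 the ratio was 2.23, with 96.3% of like genes below it, and for Gata6 it was 1.48, with 83.5% below. For the other 6 factors it ran from 0.742 for Gata4 to 1.14 for Mef2a. Read as variation between libraries of a group under a negative binomial model, these SEs amount to a coefficient of variation of 52.5% for Hand2, 23.1% for Tbx20 and 15.2% for Gata6, and to 7.52% to 11.7% for the other 6. These are values worked back from the SEs, and the spread between libraries itself could not be measured.

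Atrial markers had larger SEs still. The SEs in the authors' deposited table were 0.60 for Nppa, 0.76 for Myl4, 1.24 for Myl7, 1.47 for Mybphl and 1.55 for Sln, and the 6 markers came to implied means of 2497 normalized counts under GFP and 8257 under dnMKL1. Nppa made most of that gap, with 1935 and 7359, and the other 5 came to 561 and 899. Of 4 atrial markers with an adjusted p-value, 0 passed, while Nppa and Mybphl had a Wald statistic but no p-value. In a DESeq2 results table this form is the usual mark of a gene with an outlying count in a library. Most of the atrial gap thus rests on a gene so marked, and what 1 library adds to it was not tested. Endocardial markers summed to 495 and 546, with 1 of 4 called, Npr3, at a log2 fold change of 1.00 (SE 0.40) in the authors' deposited table. Fibroblast markers summed to 4450 and 6912, with 4 of 10 higher, Col1a1, Col1a2, Col3a1 and Gsn, and 0 lower. Col3a1 (1937 and 2625) and Gsn (876 and 1951) made most of these sums. Pdgfra, Tcf21, Dcn, Lum, Postn and Ddr2 were not called, with log2 fold changes from 0.063 for Pdgfra to 0.79 for Tcf21. Mural markers summed to 18208 and 15872, with 2 of 8 higher, Cspg4 and Myh11, and Acta2 lower, and macrophage markers to 138 and 125, with 1 of 6 tested higher, Cd68. Acta2 (10454 and 4999) and Abcc9 (6332 and 7773) made most of the mural sums, and of the mural markers only Acta2 had a log2 fold change below 0. Besides Abcc9, the mural markers not called were Pdgfrb (301 and 342), Rgs5 (267 and 270), Kcnj8 (123 and 126) and Notch3 (132 and 179). The fall of the mural sum is thus that of Acta2. Endothelial markers summed to 3905 and 3925 and had 0 of 10 called, and epicardial ones to 64.0 and 66.9 with 0 of 6 called. Under equal totals 8 of 10 fibroblast, 3 of 4 endocardial and 4 of 8 mural markers were higher, and Acta2 was still lower. Of all genes tested, 40.4% were higher under equal totals, against 16.6% under the authors' scaling. No marker found in the table was at 0. Their part in the values of Hand2, Tbx20 and Gata6 was not tested.

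**Figure D3:**
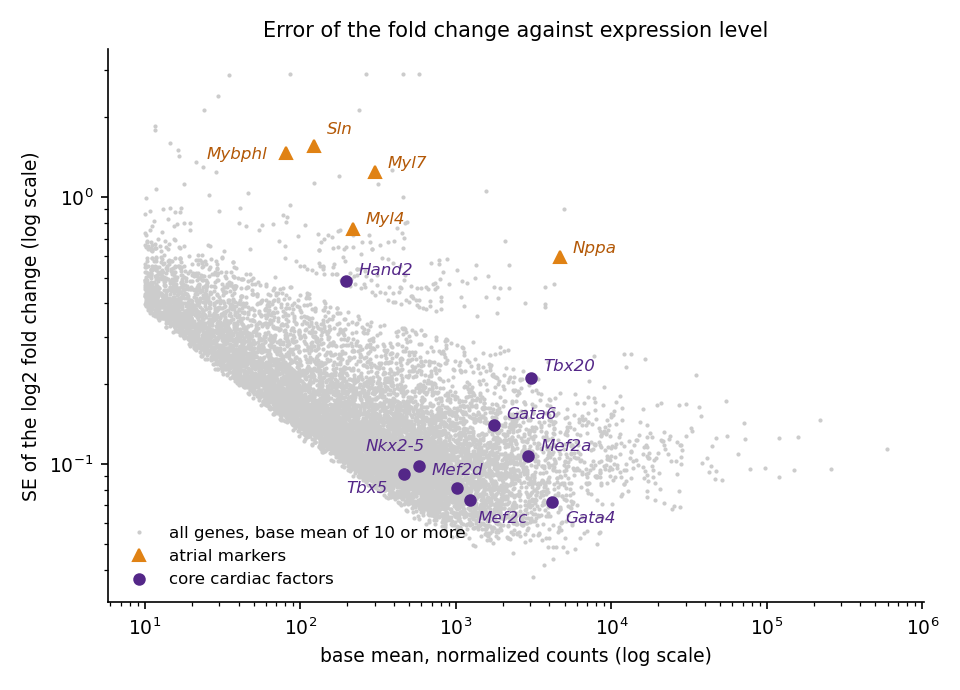
The SE of the log2 fold change (vertical, log scale) is plotted against base mean in normalized counts (horizontal, log scale) for all genes at 10 normalized counts and above (grey), the 9 core factors at that level (circles) and 5 of the 6 atrial markers (triangles, Bmp10 being below that level). Hand2 and Tbx20 stand above most genes of their level, the atrial markers higher still, and the other core factors lie within the main band.

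Genes for the proteins that core factors work with moved in both directions. Of 28 partners, paralogues and regulators with an adjusted p-value, 7 were higher (6 without Mkl1, whose reads include the vector's) and 6 lower in the authors' deposited table, with 15 not past the threshold and a median log2 fold change of 0.055. This is 46.4% called, or 44.4% without Mkl1, beside 34.1% of all genes and 43.4% of those with a base mean of at least 100. Under equal totals 12 were higher and 4 lower, 57.1% called beside 47.0% of all genes. The 3 E-proteins, the dimer partners of HAND1 and HAND2, were all higher, with log2 fold changes by the authors' deposited table of 0.59 (SE 0.14) for Tcf4, 0.38 (SE 0.11) for Tcf3 and 0.36 (SE 0.10) for Tcf12. The calls of these 3 held under equal totals. E-proteins are widely expressed and pair with many other helix-loop-helix factors.

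Calcium/calmodulin-dependent kinase II and protein kinase D release MEF2 from repression by class IIa histone deacetylases. Log2 fold changes by the authors' deposited table were -0.74 (SE 0.10) for Camk2d, -0.59 (SE 0.11) for Camk2g and -0.48 (SE 0.15) for Prkd1, all called. Among the deacetylases, Hdac9 was lower at -0.25 (SE 0.10) in the authors' deposited table, while Hdac5, the most abundant, had 0.063 (SE 0.11), Hdac7 0.47 (SE 0.24) and Hdac4 -0.16 (SE 0.23), none past the threshold. With both groups scaled to equal totals, Camk2d and Camk2g were still called lower, Prkd1 and Hdac9 were not called, and Hdac5 and Hdac7 were called higher, at 0.35 and 0.76.

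SRF and its coactivators were all called. By the authors' deposited table the log2 fold changes were -0.80 (SE 0.10) for Srf, 0.90 (SE 0.21) for Myocd and 0.43 (SE 0.08) for Mkl2, and these calls held under equal totals. Sall4, a zinc finger partner of TBX5, was lower at -0.78 (SE 0.19) in the authors' deposited table, at a base mean of 64.0. The GATA cofactors Zfpm2 and Zfpm1 had -0.14 (SE 0.14) and 0.047 (SE 0.22), Smarcd3, the chromatin remodelling subunit that works with GATA4 and TBX5, had -0.038 (SE 0.07), and Crip2 had -0.025 (SE 0.17) there, none past the threshold. Of the other family members, the authors' deposited table listed base means of 2.82 for Gata5, 5.42 for Mef2b, 24.9 for Tbx2 and 150 for Tbx3, and Nkx2-6 at 0.

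Of 32 other heart transcription factors tested, 6 were higher and 2 lower in the authors' deposited table, with a median log2 fold change of 0.14. This is 25.0% called, beside 34.1% of all genes. The Iroquois genes, some of which set electrical gradients in the ventricle, moved both ways: the authors' deposited table gave 0.84 (SE 0.16) for Irx3, 0.81 (SE 0.15) for Irx5 and -0.31 (SE 0.08) for Irx4, the ventricular member. Of the others called there, Sox4 had 0.99 (SE 0.24), Etv1, a factor of fast conduction, 0.87 (SE 0.19), Ankrd1 0.45 (SE 0.18), Meis1, a regulator of the postnatal cell cycle exit, 0.31 (SE 0.07) and Sox6 -0.43 (SE 0.11). Hopx, Smyd1 and Klf15 had 0.12 (SE 0.14), -0.33 (SE 0.18) and -0.18 (SE 0.19) in the authors' deposited table, none past the threshold. Under equal totals 15 of the list were higher and 0 lower, 46.9% called beside 47.0% of all genes, and the calls of Irx4 and Sox6 were lost.

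Genes known as regulated by core factors made up the last list. Of 38 tested, 8 were higher and 17 lower in the authors' deposited table, with a median log2 fold change of -0.24. This is 65.8% called, beside 34.1% of all genes and 43.4% of those with a base mean of at least 100, as all tested targets but Cited1 had. The list was set with earlier results of these data known. It overlaps the other lists, so its counts are not separate from theirs. Tnnt2, Myh6, Ryr2, Tnni3, Pln and Myl2 are also cardiomyocyte markers, Nppa and Myl7 atrial markers, and Myocd a partner. Under equal totals the split was 12 higher and 12 lower, 63.2% called beside 47.0% of all genes, and the median 0.051.

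The contractile targets Myl3, Actc1, Tnnc1 and Myh6 were lower, with log2 fold changes of -1.38 (SE 0.12), -1.55 (SE 0.15), -1.54 (SE 0.17) and -0.87 (SE 0.11) in the authors' deposited table. Atp2a2, the calcium pump of the sarcoplasmic reticulum, and Kcnd2, a transient outward potassium channel that IRX5 is known to repress, had -0.90 (SE 0.10) and -1.73 (SE 0.21) there. Gja5, the connexin of fast conduction and a target of TBX5 and NKX2-5, was higher at 1.67 (SE 0.19), as was Cdkn1a, a cell cycle inhibitor that p53 induces, at 2.80 (SE 0.24) in the authors' deposited table. Pln and Myl2 had -0.21 (SE 0.11) and -0.20 (SE 0.11) there, neither past the threshold. Under equal totals the 8 called genes named here kept their calls and directions. Whether targets differ from the factors that bind them was not tested.

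**Figure D4:**
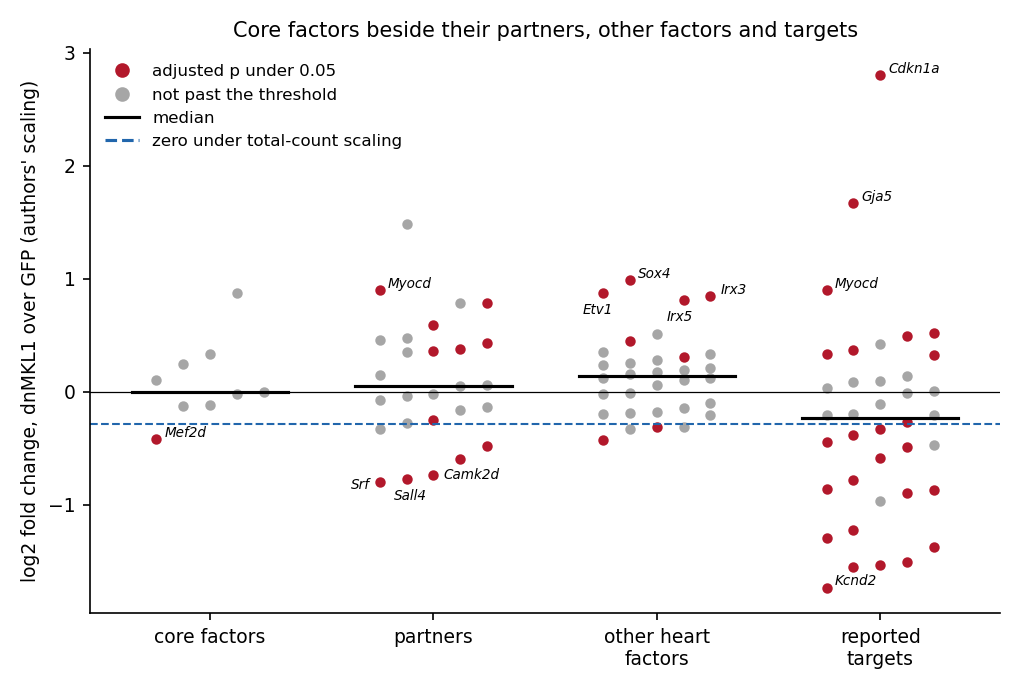
Log2 fold changes, dnMKL1 over GFP under the authors' scaling, of the 9 core factors tested, 27 partners without Mkl1, 32 other heart factors and 38 reported targets, each point a gene and each bar a median. Of the core factors only Mef2d is drawn as called, while calls in both directions stand in the other lists, and the dashed line marks 0 under scaling to equal totals. Myocd is drawn both as a partner and as a target.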

How the data were processed

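RNA was measured by polyA RNA sequencing in 5 GFP and 5 dnMKL1 libraries. Per the labels' protocols, cDNA was made from 10 ng of total RNA (SMART-Seq), amplified over 8 PCR cycles, and used at 500 pg for Nextera XT libraries. Reads were aligned with STAR 2.5.3a to mm10 and counted with featureCounts (Subread 1.5.2), per the submitters' processing notes; annotation and strand use are not given in the sources used here. Per the file headers, the deposited table has the columns of a DESeq2 results table. The base mean is the authors' signal in normalized counts, the deposited fold change and SE are log2 values, the deposited statistic is a Wald score, fold change over SE (largest gap 1.14e-05), and the deposited p-values are adjusted by the Benjamini-Hochberg method over 14056 genes (recomputed, largest gap 1.44e-07).

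The planned rule was the authors' adjusted p under 0.05 where no values per library were at hand. The 95% intervals are normal intervals from the deposited SE. Implied means take the base mean as the average of both groups. Size factors were read from genes with a single read in all, where the base mean is the inverse of that size factor spread over 10 libraries and the fold change has the sign of the library's group. They cannot be matched to replicate numbers. The Hand1 reads were solved for with a tolerance of 1e-13, and the solver, the adjustment and the dispersion estimate were tested on simulated data. Few reads limit Hand1, and intervals from its reads cover counting error only. Lengths came from GENCODE M21 and coordinates from RefSeq, both on GRCm38. Overlaps between genes were taken over whole GENCODE spans, introns included, so shared exon sequence was not measured. The members and lists were chosen with earlier results of these data known. Besides the members, named genes were those of a list past the threshold with a base mean of at least 50 (at most 8 by Wald statistic) and the 3 most abundant not past it, of which 1 is not reported here; Tcf3, Tcf12, Prkd1, Hdac4, Hdac7, Hdac9, Zfpm1, Zfpm2 and the other paralogues, added to complete their families, were named after their values were seen, as were the markers picked from the fixed marker lists. Alternatives were other thresholds, scalings, filters and lengths (Python 3.11.15, pandas 2.3.3, scipy 1.17.1).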

Additional observations from a re-analysis of the deposited data

How the results depend on the processing

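No paired analysis was possible because no column holds the values of 1 library, and fits without 1 library were not run for the same reason, so whether 1 library decides a value is unknown. The cause of each change below is the setting's own construction, a constant added to every fold change or a stricter limit. Total-count scaling gave 6 core factors higher and 0 lower, 12 partners higher, 15 other heart factors higher and 0 lower, and 5685 genes higher and 927 lower over all. It reversed 9 named genes, to 0.29 for Nkx2-5, 0.27 for Tbx5, 0.17 for Mef2a, 0.16 for Mef2c, 0.26 for Crip2, 0.25 for Smarcd3, 0.11 for Klf15, 0.083 for Pln and 0.087 for Myl2; it also ended the calls of Mef2d, Sox6 and Irx4. Chosen after seeing the data, totals without Mkl1 gave 7 core factors higher and 0 lower, with Nkx2-5 at 0.30, Tbx5 at 0.28, Mef2a at 0.18 and Mef2c at 0.17. The call added to the 6 was that of Mef2c, and Mef2a was not called. Totals without genes of base mean 10000 or more gave 2 higher, with Nkx2-5 at 0.10 and Tbx5 at 0.086, and Mef2d was still called lower. Asking for an absolute log2 fold change of at least 0.5 left 0 core factors lower, 4 partners higher, 0 other heart factors lower, 4 targets higher, and 1489 genes higher and 1246 lower over all. The other thresholds, adjustment over every p-value, median-centring and a base mean of at least 100 changed no call of a core factor. Per kilobase of coding sequence the base means were 3144 for Gata4, 2279 for Tbx20, 1943 for Mef2a, 990.2 for Gata6, 843 for Mef2c, 657.8 for Mef2d, 610.4 for Nkx2-5, 303.9 for Hand2, 299.8 for Tbx5 and 1.685 for Hand1.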
